A study of Mus musculus with 12 samples.

Results

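Ccn1, Ccn2, Thbs1, Ajuba, Amotl2 and Arhgap29 are genes known to be switched on by the transcriptional coactivator YAP. They are 6 of the 546 genes in a table of a co-culture experiment on mouse embryonic stem cell aggregates. They were picked as known YAP targets after their FPKM values in the co-culture libraries and their controls had been seen, so those values are given as a description, without a test of any member. Ccn1 was the only one of the 6 that was also among the 633 genes listed for a second experiment, in which a cocktail of factors was given.

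Aggregates were formed from the embryonic stem cell line 129w2 (passages 13 to 16) at 3000 cells per well on day 0. All groups were grown with Matrigel and received BMP4 at 2 ng/ml on day 3, then bFGF at 25 ng/ml and retinoic acid (RA) at 1 µM on day 4, and were moved to new wells on day 5. One experiment compared 3 libraries of aggregates co-cultured with mSMGs between day 5 and day 7 with 3 control libraries of aggregates at day 7, and the other compared 3 libraries of aggregates given the cocktail with 3 libraries of their own day 7 controls. The labels do not spell out mSMGs, the make-up of the cocktail or its timing, and they do not say whether replicates were separate cultures, so p-values here cover only library-to-library spread, possibly technical. Per the series design, the first comparison asked what co-culture does to differentiation, and the second whether the cocktail can take its place.

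YAP and its relative TAZ carry no DNA-binding domain of their own and act on genes through the TEAD transcription factors. The LATS kinases of the Hippo pathway phosphorylate them and so keep them out of the nucleus, while spreading, tension and loss of cell contact favour their entry. Several targets act back on the pathway: angiomotins hold YAP in the cytoplasm, and Ajuba proteins hold back LATS. In the embryonic salivary gland YAP is known for its part in the duct lineage.

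The core of the DNA letters that TEAD factors recognise is CATTCC, or GGAATG on the opposite strand. RefSeq promoters (GRCm38.p6, 250 bases upstream of the start) were found for 4 of the 6 genes, and both strands were searched. The letters were present for 3 of these 4 genes, whose promoters are shown 5′ to 3′ along the gene because the match can be seen in them, with the match in capitals. Ccn1 is on the minus strand (chr3:145649986-145650235), Ajuba on the minus strand (chr14:54577662-54577911) and Amotl2 on the plus strand (chr9:102717554-102717803).
Ccn1: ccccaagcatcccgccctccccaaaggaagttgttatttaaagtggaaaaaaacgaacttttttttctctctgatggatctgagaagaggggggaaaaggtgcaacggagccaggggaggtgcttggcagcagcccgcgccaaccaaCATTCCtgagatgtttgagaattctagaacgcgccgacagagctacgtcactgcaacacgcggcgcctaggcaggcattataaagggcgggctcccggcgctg
Ajuba: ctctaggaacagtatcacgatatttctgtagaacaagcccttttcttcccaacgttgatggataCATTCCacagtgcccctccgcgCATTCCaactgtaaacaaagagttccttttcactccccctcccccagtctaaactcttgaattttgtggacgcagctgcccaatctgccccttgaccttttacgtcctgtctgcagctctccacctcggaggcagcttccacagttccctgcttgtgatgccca
Amotl2: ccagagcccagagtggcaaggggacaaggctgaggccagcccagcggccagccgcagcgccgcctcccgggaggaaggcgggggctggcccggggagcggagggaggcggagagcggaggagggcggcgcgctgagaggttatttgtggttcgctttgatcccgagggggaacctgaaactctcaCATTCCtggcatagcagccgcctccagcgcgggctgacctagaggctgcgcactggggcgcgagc
The match began 103 bases before the RefSeq start in Ccn1 and 65 bases before it in Amotl2. The Amotl2 window lies inside the gene span given below, so its RefSeq start is not the 5′ end of that span. Ajuba held 2 matches, which began 186 and 164 bases before the start. Neither of the 2 entries of Arhgap29, which also lie inside its gene span, held a match, and Ccn2 and Thbs1 had no entry. The same letters were in 12.6% of 32851 promoters of all genes. Counted by gene, with a match in any promoter, they were found for 14.4% of 27025 genes. Among genes of the co-culture table they were found for 73 of 399 (18.3%), so a match alone marks no gene as a target. The AP-1 letters TGANTCA, which read the same on both strands, were in 6.75% of all promoters. By gene they were found for 7.82% of all genes, 8.27% of the 399 and none of the 4.

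Levels are in FPKM, which scales reads to transcript length and library size, and the unit of the co-culture table is inferred because its header gives none. The table holds only genes that the authors selected, and depth of the co-culture libraries is unknown. In pairs 1 and 2 of same-numbered libraries, 91.6% and 95.5% of the listed genes with a value above 0 in both differed by at least 2 times in one direction or the other, against 28.3% in pair 3. Over the 425 listed genes with a mean of at least 1 FPKM in either group, co-culture replicate 3 correlated at 0.960 with control replicate 3 and at 0.835 and 0.685 with co-culture replicates 1 and 2 (Pearson r of log2(FPKM + 1) across genes, which are not independent replicates). Replicate 3 therefore stood with the controls rather than with its own group, and each co-culture library is described separately below. In bulk RNA, a change in the number of cells of a type and a change in RNA per cell cannot be told apart.

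The secreted matrix proteins come first. Ccn1 (ENSMUSG00000028195, GRCm38 chr3:145646976-145649981, minus strand) encodes CYR61, which binds integrins at the cell surface. It was at 20.6, 14.4 and 11.4 FPKM in control replicates 1, 2 and 3. It was at 89.5, 97.4 and 14.0 FPKM in co-culture replicates 1, 2 and 3. Replicates 1 and 2 were close to each other and far above every control, while replicate 3 lay inside the control range, so the groups overlapped. Relative to the same-numbered control, Ccn1 was 4.35, 6.78 and 1.23 times as high in pairs 1, 2 and 3.

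Ccn2 (ENSMUSG00000019997, chr10:24595442-24598683, plus strand) encodes CTGF, a relative of CYR61 that acts with TGF-beta in laying down matrix. It was at 40.0, 51.6 and 31.0 FPKM in the controls and at 101.5, 294 and 37.0 FPKM with co-culture. Replicate 2 was highest, replicate 1 was also above every control, and replicate 3 was between control replicates 3 and 1. The ratios were 2.54, 5.70 and 1.20.

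Thbs1 (ENSMUSG00000040152, chr2:118111876-118127133, plus strand) encodes thrombospondin-1, a matrix glycoprotein that releases TGF-beta from its latent form. It was at 5.38, 4.62 and 2.83 FPKM in the controls and at 46.5, 110.3 and 3.46 FPKM with co-culture. Its pair ratios of 8.64 and 23.9 were the highest of the 6 genes in pairs 1 and 2, and at 1.22 in pair 3 it was inside the control range. The antisense gene Gm15270 overlaps Ccn2 and the antisense gene Gm29233 overlaps Thbs1 in the GENCODE M21 annotation. No source used here says whether reads were counted by strand, so reads of these overlapping genes cannot be told apart.

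Of the junction and cytoskeleton genes, Ajuba (ENSMUSG00000022178, chr14:54567472-54577558, minus strand) encodes a LIM-domain scaffold of cell junctions that holds back LATS. It was at 47.0, 97.7 and 38.1 FPKM in the controls and at 120.3, 228 and 69.4 FPKM with co-culture. Each co-culture library was above its same-numbered control, by 2.56, 2.33 and 1.82 times, but replicate 3 was below control replicate 2. Ajuba had the smallest ratio of the 6 in pair 2 and the largest in pair 3.

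Amotl2 (ENSMUSG00000032531, chr9:102716672-102733418, plus strand) encodes an angiomotin-like scaffold that binds YAP at cell junctions. It was at 39.7, 45.5 and 33.4 FPKM in the controls and at 112, 129.9 and 40.2 FPKM with co-culture. Replicates 1 and 2 lay above all controls with near-equal ratios of 2.83 and 2.86, and replicate 3, at a ratio of 1.20, lay between control replicates 1 and 2.

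Arhgap29 (ENSMUSG00000039831, chr3:121952541-122016753, plus strand) encodes a GTPase-activating protein that acts downstream of Rap1. It was at 10.1, 4.58 and 10.1 FPKM in the controls and at 25.3, 73.3 and 16.4 FPKM with co-culture. Of the 6 genes it was the one whose groups did not overlap, with replicate 3 at 1.62 times its control. The ratio of 16.0 in pair 2 rests in part on control replicate 2, the lowest of the controls, against 2.50 in pair 1.

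**Figure D1:**
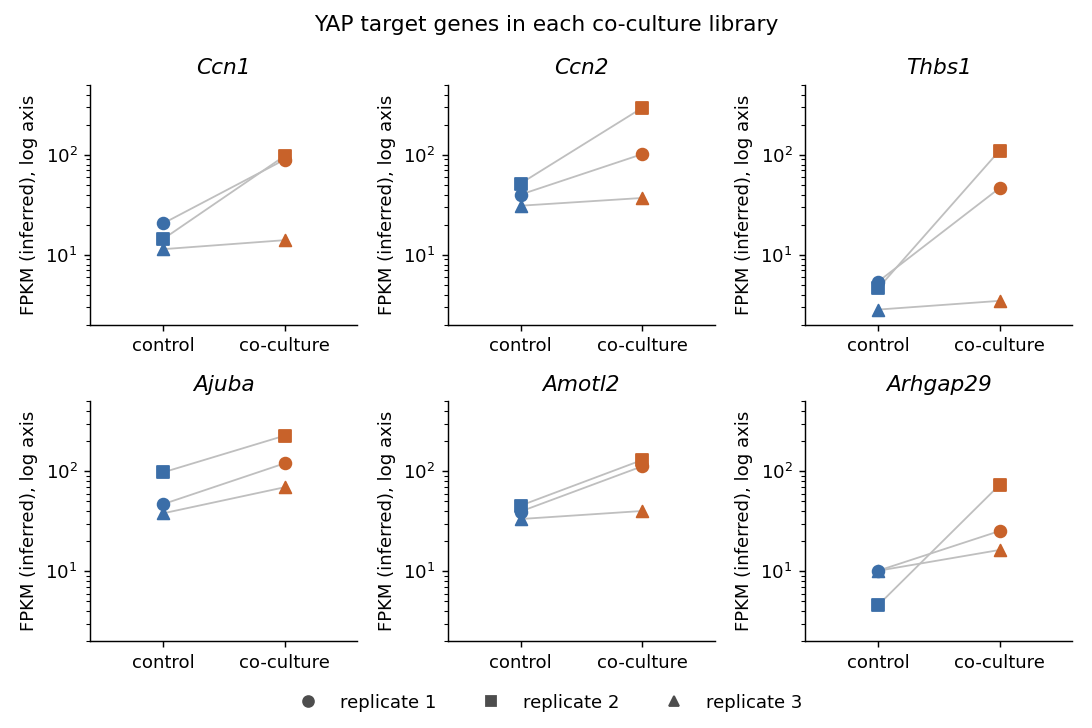
Level of each of the 6 genes in every library, in FPKM (inferred) on a log axis; circles, squares and triangles are replicates 1, 2 and 3, and grey lines join same-numbered libraries. Replicates 1 and 2 lie above the controls in all panels, while the triangle of co-culture replicate 3 lies above every control for Arhgap29 alone.

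All 6 genes were at least 2 times their same-numbered control in pair 1, where 71.8% of all 546 listed genes were. All 6 were so in pair 2, against 72.7% of listed genes, and none of the 6 in pair 3, against 24.5%. The share of listed genes that passed this mark in both of pairs 1 and 2 was 71.4%. All 6 were above every control in co-culture replicate 1 (72.0% of listed genes) and in replicate 2 (70.9%), and above their own control in these pairs (75.3% and 74.7%). In co-culture replicate 3 all 6 were above control replicate 3, against 72.2% of listed genes, and 1 of the 6 was above all controls, against 33.7%. These shares are those of a list selected by the authors, and nothing is read from the members' counts against them.

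The median ratio of the 6 genes was 2.69 in pair 1, 6.22 in pair 2 and 1.23 in pair 3. Over all listed genes with a ratio, the medians were 2.50, 3.84 and 1.31. Over the genes at least doubled in pairs 1 and 2, they were 2.92, 5.25 and 1.43. In pair 1 the members' median lay above that of all listed genes and below that of the doubled genes. It lay above both in pair 2 and below both in pair 3. The members were picked with these values known, so nothing is read from the order of these medians.

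**Figure D2:**
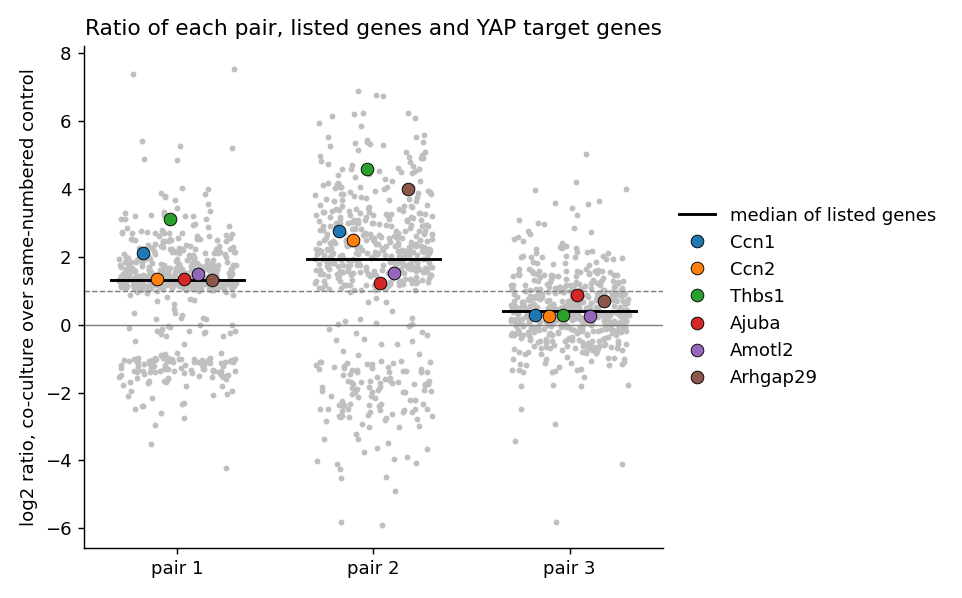
Log2 ratio of each co-culture library over its same-numbered control, for the listed genes with a value above 0 in both (grey, median as a black line) and the 6 YAP target genes (coloured); the dashed line marks a ratio of 2. In pair 3 all 6 lie below the dashed line, at ratios of 1.20 to 1.82.

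The genes differed in how replicates 1 and 2 compared with each other. Ccn1 was 1.09 times and Amotl2 1.16 times as high in co-culture replicate 2 as in replicate 1. Ajuba was 1.89 times, Thbs1 2.37 times, Arhgap29 2.89 times and Ccn2 2.90 times as high. The median was 1.65, with quartiles of 1.06 and 2.57, over 295 genes. These were doubled in both pairs and had a co-culture mean of at least 1 FPKM. Ccn1 and Amotl2 were therefore below that median and the other 4 above it, and these are single libraries with no test.

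**Figure D3:**
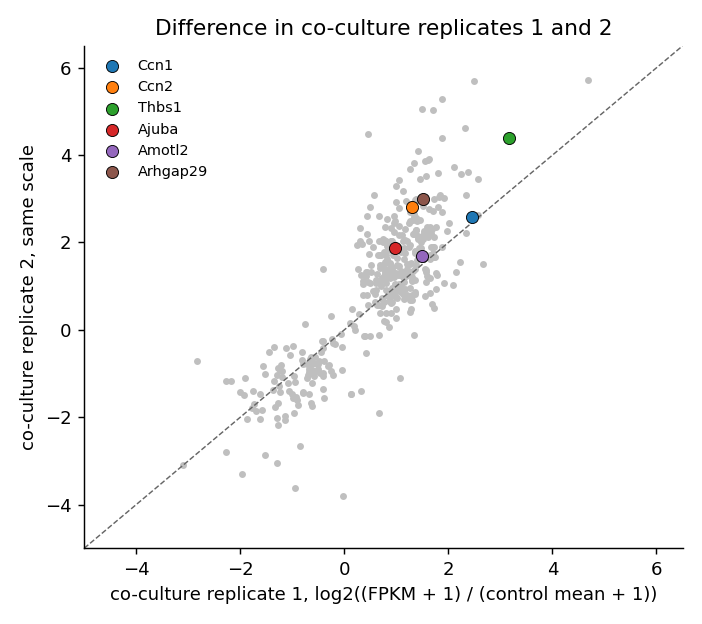
Difference from the control mean on the log2(FPKM + 1) scale in co-culture replicate 1 (horizontal) and replicate 2 (vertical), for genes with a mean of at least 1 FPKM in either group (grey) and the 6 YAP target genes (coloured); the dashed line marks equal differences. Ccn1 lies on the line, and Ccn2 and Arhgap29, at 2.90 and 2.89 times their level in replicate 1, lie well above it.

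The order of levels also shifted between libraries. In every control Ajuba was highest, with Ccn2 and Amotl2 next. The control ranges of Ajuba, Ccn2 and Amotl2 overlapped, as did those of Arhgap29 and Thbs1, and Ccn1 lay between these sets without overlap. Ajuba stayed highest in co-culture replicates 1 and 3, while Ccn2 was highest in replicate 2. Thbs1 was lowest in control replicates 1 and 3 and in co-culture replicate 3, and above Ccn1 and Arhgap29 in co-culture replicate 2.

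The summed level of the 6 genes was 162.8, 218.4 and 126.8 FPKM in control replicates 1, 2 and 3. It was 495.3, 933 and 180.4 FPKM with co-culture. As a share of the summed level of all listed genes, these were 2.21%, 2.33% and 1.74% in the controls and 5.12%, 6.52% and 2.08% with co-culture. Replicate 3 was again inside the control range on both measures.

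In a limma fit over the same 425 genes, the co-culture minus control difference on the log2(FPKM + 1) scale was highest for Thbs1, at 2.47 (SE 0.97). It was 1.87 (SE 0.69) for Arhgap29 and 1.67 (SE 0.76) for Ccn1. It was 1.35 (SE 0.72) for Ccn2, 1.13 (SE 0.61) for Ajuba and 1.08 (SE 0.60) for Amotl2. The median was 1.51 for the 6 genes and 0.83 for all 425. None of the 425 genes (0.00%) passed an adjusted p of 0.05 with limma, the one tool run here, and 86 had an unadjusted p under 0.05.

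These counts depended on the model and on the libraries kept. With same-numbered libraries as pairs (a replicate block), 39 genes passed, 38 of them higher (8.94% of those tested), and none passed with this block on libraries centred on their median. Without co-culture replicate 3, 330 of 449 genes passed, 284 of them higher (63.3%), and without both libraries numbered 3, 2 of 450 passed. No call of a member is read from these fits. Without co-culture replicate 3 the log2 difference was 3.82 for Thbs1, 2.56 for Ccn1 and 2.08 for Ccn2, and without co-culture replicate 2 it was 1.50 for Thbs1, 0.70 for Ajuba and 0.61 for Ccn2.

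Other YAP and TAZ target genes of the co-culture table were taken from a list of 36. Of these, 14 were in the table and 8 were not members. Of the 8, 7 reached 2 times their control in pairs 1 and 2, against 71.4% of all listed genes. Lats2, the kinase that holds back YAP, was at 6.45, 5.27 and 7.06 FPKM in the controls and at 15.3, 29.1 and 8.29 FPKM with co-culture. Igfbp3, a secreted binding protein of insulin-like growth factors, was at 1.62, 1.24 and 1.51 FPKM in the controls and at 4.36, 21.2 and 1.99 FPKM with co-culture. For both genes all co-culture libraries lay above all controls, as for Arhgap29. Across the table, this held for 30.2% of listed genes.

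Crim1, Ptpn14, Nuak1, Tgfbr2 and Edn1 were at least doubled in pairs 1 and 2 only, with co-culture replicate 3 inside the control range for each. Of these genes Edn1, which encodes the peptide endothelin-1, had the highest ratios in pairs 1 and 2, at 29.6 and 16.5, with 1.04 in pair 3. It was at 0.146, 1.49 and 0.580 FPKM in the controls and at 4.33, 24.6 and 0.602 FPKM with co-culture. The ratio of 29.6 thus rests on a low level of 0.146 FPKM in control replicate 1. The exception was Axin2, better known as a target of Wnt signalling, at 60.2, 26.4 and 33.6 FPKM in the controls and at 50.02, 14.5 and 28.6 FPKM with co-culture. Axin2 was below its same-numbered control in each pair.

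Of 37 Hippo pathway genes, 7 were in the table. Each was at 2 times its control or more in pairs 1 and 2, against 71.4% of all listed genes. The 7 include Ajuba and Amotl2, with Lats2, Amot, Vgll2, Ptpn14 and Tead4. Tead4, a DNA-binding partner of YAP, was at 0.526, 1.20 and 0.166 FPKM in the controls and at 1.66, 4.34 and 0.731 FPKM with co-culture. It was the only one of the 7 to be doubled in all pairs, by 3.16, 3.62 and 4.39 times, although control replicate 2 lay above co-culture replicate 3. Yap1, Wwtr1 (TAZ) and Tead1 to Tead3 were not analysed here.

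Of 22 targets of MRTF and SRF, which respond to actin tension, 6 were in the table: Acta2, Tagln, Cnn1, Cnn2, Tpm1 and Myh9. Each reached 2 times its control in pairs 1 and 2 (71.4% of all listed genes) and none in pair 3 (24.5%). Myh9, a non-muscle myosin heavy chain, was at 29.9, 21.9 and 18.2 FPKM in the controls and at 75.0, 121.9 and 21.0 FPKM with co-culture. Of 21 genes of the CCN and thrombospondin families and their receptors, 4 were in the table, and Thbs2 was the one that was not a member. Thbs2 was at 5.47, 9.42 and 3.51 FPKM in the controls and at 19.5, 32.0 and 4.19 FPKM with co-culture.

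Of 20 TGF-beta response genes 3 were in the table: Ccn2, Thbs1 and Fst. Fst, which encodes the activin antagonist follistatin, had pair ratios of 2.69, 30.4 and 1.62. These rest on low control levels of 0.837, 0.521 and 0.329 FPKM, against 2.25, 15.8 and 0.534 FPKM with co-culture. Co-culture replicate 3 was inside the control range.

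Over these 5 lists, 19 listed genes were not members. Of the 19, 18 reached 2 times their control in pairs 1 and 2, against 71.4% of all listed genes. In pair 3, 1 of them did, Tead4, against 24.5%. Co-culture replicate 3 lay above control replicate 3 for 13 of the 19, against 72.2% of listed genes. It lay above all controls for 2, against 33.7%. The lists were chosen with earlier results known, so nothing is read from these counts. The authors' deposited table of pathways for genes named as up in co-culture put Fst and Thbs1 under TGF-beta signaling with an enrichment factor of 3.20 (q-value 0.290), and Thbs1 was the only member in any of its pathways.

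**Figure D4:**
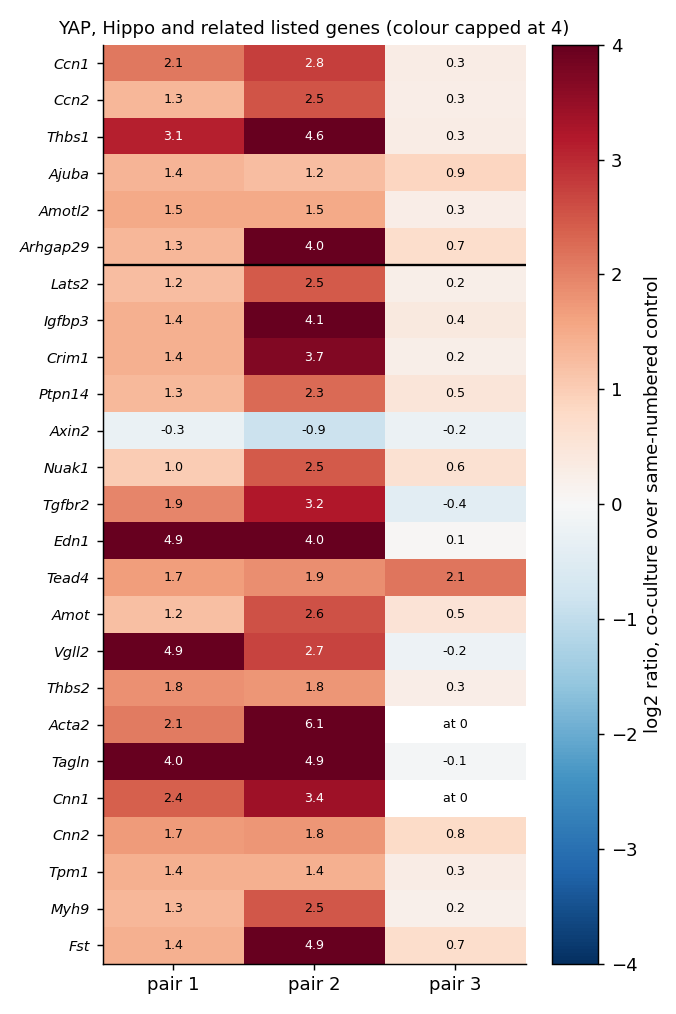
Log2 ratio of co-culture over the same-numbered control, with genes as rows and pairs as columns. The 6 YAP target genes are above the line, and the 19 other listed genes of the 5 pathway lists are below it. Red is higher and blue lower, colours are capped at 4, and cells marked 'at 0' hold a library at 0. Pair 3 is pale for nearly all rows, with Tead4 (3.16, 3.62 and 4.39 times) the one gene doubled in it.

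Markers of other cell types also lay outside the control range in co-culture replicates 1 and 2. The 3 listed of 6 myoepithelial and smooth muscle markers summed to 1.47 to 8.41 FPKM in the controls and to 26.4, 267 and 1.40 FPKM with co-culture. Of these, Acta2 and Cnn1 were at 0 in control replicate 3 and in co-culture replicate 3. The 3 listed of 6 endothelial markers (Kdr, Tek and Flt1) summed to 0.792 to 3.89 FPKM in the controls and to 10.2, 42.1 and 1.65 FPKM with co-culture. Kdr made up most of that sum. In co-culture replicate 3, Tek (0.233 FPKM) and Flt1 (0.264 FPKM) were above all controls, at 12.4 and 3.96 times control replicate 3, while Kdr was inside the control range.

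Krt19, the 1 listed of 9 salivary and ductal epithelium markers, was at 6.22 to 6.70 FPKM in the controls and at 26.2, 154.3 and 11.2 FPKM with co-culture. Perp, the 1 listed of 6 oral ectoderm markers, was at 0.982 to 1.80 FPKM in the controls and at 6.54, 35.7 and 3.96 FPKM with co-culture. Krt19 and Perp, unlike the muscle markers, were above all controls in replicate 3 as well. Col3a1, the 1 listed of 10 fibroblast and mesenchyme markers, was at 0.0782 to 0.302 FPKM in the controls and at 1.10, 1.49 and 0.0298 FPKM with co-culture.

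The 2 listed of 6 neural progenitor markers (Fabp7 and Hes5) ran the other way, summing to 155 to 274 FPKM in the controls and to 49.8, 25.8 and 269 FPKM with co-culture. By this sum replicates 1 and 2 were outside the control range and replicate 3 inside it. Hes5 alone, at 54.3 FPKM in replicate 3 against at most 41.0 FPKM in the controls, was above the range there. The part of these cell types in the members' values, and of any RNA from the co-cultured mSMGs, was not tested.

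The candidates were 419 listed genes with a mean of at least 1 FPKM in either group, members left out. Those most like each member were ranked by Pearson r of log2(FPKM + 1) over the 6 libraries. For Ccn1 they were Ahnak (r = 0.994), Chsy3 (0.993) and Sema3c (0.992), and for Ccn2 they were Prss8 (0.993), Pdgfb (0.992) and Lgals3 (0.991). For Thbs1 they were Plcl1 (0.996), Chrnb1 (0.995) and Myh9 (0.994), and for Ajuba they were Pxdc1 (0.997), Cdkn1a (0.986) and Tead4 (0.984). For Amotl2 they were Tent5b (0.989), Chsy3 (0.988) and Egr1 (0.987), and for Arhgap29 they were Slc4a11 (0.995), Ap1s2 (0.982) and Creg2 (0.980). Several of these genes were under 1 FPKM in all controls, among them Chsy3, Prss8, Slc4a11 and Creg2.

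High values were common in this table: the median r of all 419 genes ran from 0.730 with Ajuba to 0.861 with Thbs1. Among the members, r ran from 0.699 between Ajuba and Arhgap29 to 0.987 between Thbs1 and Amotl2. All genes share the same 6 libraries, so these values are a description.

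In the cocktail experiment the deposited list gives FPKM for 633 genes, whose largest authors' FDR was 0.00990 and whose smallest absolute log2 fold change was 1.002. Of the members, Ccn1 (under its older symbol Cyr61) was listed, that is 1 of 6, against 66 of 546 genes of the co-culture table (12.1%). Ccn1 was at 3.60, 4.14 and 4.39 FPKM in the controls and at 7.05, 9.001 and 9.12 FPKM with the cocktail. All cocktail libraries were above all controls, with group means of 4.04 ± 0.401 and 8.39 ± 1.16 FPKM (SD, n = 3).

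With FPKM as deposited, Ccn1 rose by 0.89 (SE 0.12) on the log2(FPKM + 1) scale with the cocktail (limma, adjusted p = 9.21e-05, higher in 3 of 3 libraries). All 633 genes passed the test, 57.3% higher and 42.7% lower. The authors had listed them for a low FDR and a large change in these same libraries, so passing it is no independent evidence for Ccn1 or for any other gene of the list. The authors' deposited table gave Ccn1 a log2 fold change of 1.09 and an FDR of 1.28e-11. Of the 363 genes that were higher, 239 (65.8%) had a larger difference than Ccn1, and the median of the 363 was 1.13.

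The direction for Ccn1 depended on how the libraries were scaled. Scaled by the median ratio over the listed genes, the difference was 0.25 (limma, adjusted p = 0.0749), and scaled by the sum of the listed genes it was -0.64 (limma, adjusted p = 0.00125). These scalings moved the median difference of all 633 genes from 0.57 to 0.20 and -0.45, and the share of called genes that were higher from 57.3% to 52.0% and 29.0%. Both use selected genes, most of which were higher, whereas the deposited FPKM is scaled to the library by the authors. Relative to the median of all genes, Ccn1 was above it by its deposited FPKM (0.89 against 0.57) and by the median ratio (0.25 against 0.20), and below it by the sum (-0.64 against -0.45).

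**Figure D5:**
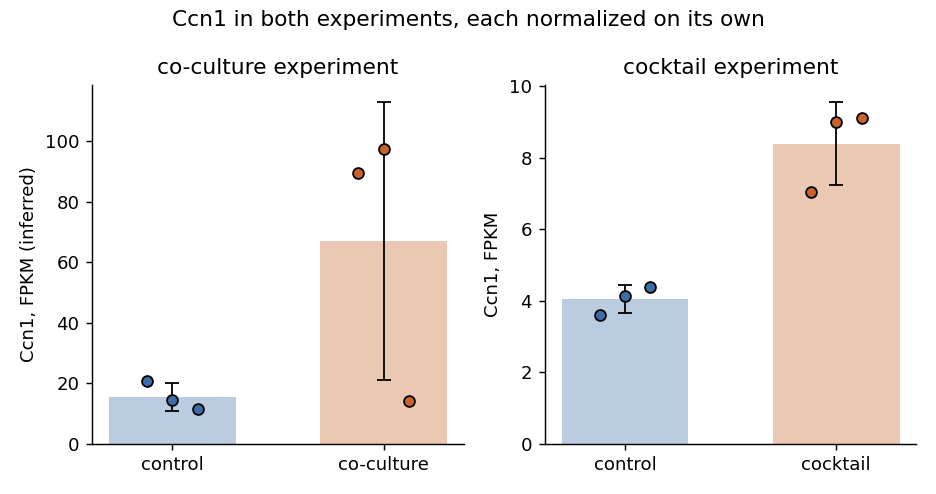
Ccn1 in the co-culture experiment (left) and the cocktail experiment (right), in FPKM on separate linear axes; points are libraries, bars are group means and lines are SDs of 3 libraries. The co-culture points at 89.5, 97.4 and 14.0 FPKM are split, while the cocktail points at 7.05, 9.001 and 9.12 FPKM all lie above their controls.

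The tables were normalized separately, so the day 7 control levels of Ccn1 of 15.4 ± 4.69 FPKM (SD, n = 3) in the co-culture experiment and 4.04 ± 0.401 FPKM in the cocktail experiment were not compared by a test. Other genes of the same lists are given with FPKM as deposited. Among other targets of YAP and TAZ, Lhfp rose with the cocktail (log2 difference 1.08) and Myof, a membrane repair protein, fell by 0.73 on the same scale. The Hippo list had 5 genes in the cocktail table, of which the atypical cadherin gene Fat4 rose by 1.52 and 4 fell. Those that fell were the polarity genes Crb3 (-1.05) and Patj (-1.05), the TEAD cofactor gene Vgll3 (-0.49) and Tead4. Fat4 and Vgll3 were low, with control means of 0.473 and 0.863 FPKM. Of all 633 genes 57.3% were higher and 42.7% lower, and nothing is read from the list's count against these shares.

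Tead4 had a mean of 1.04 ± 0.142 FPKM in the controls and of 0.392 ± 0.133 FPKM with the cocktail (SD, n = 3), a log2 difference of -0.56. In the co-culture experiment it was above its control in each pair. Thbs2 had a mean of 3.18 ± 0.412 FPKM in the controls and of 8.80 ± 2.03 FPKM with the cocktail (SD, n = 3), a log2 difference of 1.21. The integrin gene Itgb5 fell by 1.05, and it completes the 3 listed genes of the CCN and thrombospondin list.

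Of the MRTF and SRF targets, Acta2 rose by 0.71, and Myl9 (-0.95) and Tgfb1i1 (-1.20) fell. Of the TGF-beta response genes, Tgfb1 rose by 0.48 and Fst by 0.82. Under the scaling by the sum of the listed genes, Lhfp (-0.44), Thbs2 (-0.29), Tgfb1 (-0.13) and Fst (-0.46) turned negative, while Fat4 (0.54) and Acta2 (0.05) did not. Among these, Thbs2 (limma, adjusted p = 0.124), Tgfb1 (0.313) and Acta2 (0.553) did not pass in either direction. Scaled by the median ratio, all of these genes stayed positive, and Tgfb1 (limma, adjusted p = 0.0993) and Fst (0.0621) did not pass. The genes that fell, Tead4 among them, stayed negative under both scalings.

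The cell type markers in the cocktail table were 3 of 10 fibroblast and mesenchyme genes, all lower, and Kdr among the endothelial genes, also lower. Of 6 myoepithelial and smooth muscle genes 2 were there, 1 higher and 1 lower. Over all 633 genes 42.7% were lower, and nothing is read from the marker counts. The part of these markers' cell types in the level of Ccn1 was not tested. Of the 66 genes in both tables, 44 reached 2 times their control in co-culture pairs 1 and 2, and 29 of these were higher and 15 lower with the cocktail. That is a split of selected genes and not of all genes.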

How the data were processed

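Per the submitters' processing notes, reads were aligned with HISAT2 to GRCm38. No source used here names the quantifier or annotation. For co-culture the authors deposited values without a unit in the header, taken here as FPKM. The cocktail table holds FPKM per the file headers, with the authors' log2 fold change and FDR, and its columns, numbered 1 to 3 in each group, match no sample title by number. The authors' deposited pathway table gives p-values, q-values and an enrichment factor (a ratio). In the cocktail files 6 columns with only numbers as names and 6 columns of counts were left out, and 1 broken line was dropped. Symbols came from GENCODE M21 by identifier (546 of 546 and 594 of 633 genes).

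Co-culture values were fitted with limma 3.58.1 (R 4.3.3, intensity trend) on log2(FPKM + 1), which understates changes of low genes. Cocktail FPKM was fitted in the same way over all 633 genes, without a filter. A count test had been planned for the cocktail and was run first. It was replaced, after its result was known, because count and FPKM columns that name a group but no sample could not both be mapped. In the count fits Ccn1 rose with the authors' library scaling and with TMM factors from the listed genes, and did not pass with median-ratio factors from the listed genes. The report gives FPKM rescaled over the listed genes. The depth of the co-culture libraries is unknown, and that of the cocktail libraries is not given here. The Benjamini-Hochberg adjustment ran over all genes tested. The scripts were tested on simulated data. Co-culture replicate numbers come from the labels. Deviations from group means correlated at 0.606, 0.143 and 0.256 in same-numbered libraries, each over 0.1, so they were treated as pairs in the blocked fit. Between libraries of different number they correlated at -0.349 to 0.0419. Deviations cancel within a group, so these values are tied to each other. The labels give no pairing beyond the number, so pairing is not established.

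Named genes were the members, all listed genes of the pathway lists (1 list and 1 further gene are not reported here), and the 3 genes most like each member by correlation. Members and lists were chosen with earlier results of these data known.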

Additional observations from a re-analysis of the deposited data

How the results depend on the processing

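The 6 members' co-culture log2 differences kept their sign under all 13 alternatives, from 0.54 to 3.82 (78 values). The members were picked with their values known, so the kept sign is a description and no support. Adding the replicate block or dropping the filter cannot move the difference. Co-culture calls numbered 0 of 425 as fitted and 39 with the replicate block. They ranged from 0 to 330 when one library was left out, with 330 without co-culture replicate 3 and 1 without control replicate 1. They numbered 2 without both libraries numbered 3, an alternative chosen after seeing the data, and 0 with the replicate block on libraries centred on their median, also chosen after seeing the data. The other alternatives (pseudocount, filter, quantile normalization, centring) gave 0. The cause was not tested.

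Centring each library on its median moved the median log2 difference of the 425 genes from 0.83 to 0.29, and quantile normalization to 0.23. With centring, 3 members in library 1 and 4 in library 2 were at least doubled, where 6 were as deposited. In library 1 the count was 5 over the control mean and 4 over the highest control. In library 3 the count was 0 under all 4 ways of forming the ratio. The share of all listed genes was computed only for the ratio as deposited (71.8%, 72.7% and 24.5% in pairs 1, 2 and 3). Whether the members' counts moved differently from the list under these alternatives was not tested, and nothing is read from them.

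Ccn1 with the cocktail ranged from 0.83 to 1.00 when one library was left out (adjusted p from 0.000114 to 0.00113, limma). It was 1.03 with a pseudocount of 0.1 and 0.89 with a filter. It was 0.25 when scaled by the median ratio over the listed genes (adjusted p = 0.0749) and reversed to -0.64 when scaled by their sum. The filter and both scalings were chosen after seeing the data. The planned count tests of the cocktail are given in words only, since only FPKM was kept. No paired fit was run for the cocktail, since its column numbers match no sample title and so pair no libraries. No outlier test was run on these groups of 3 libraries.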
